A study of Mus musculus with 8 samples.

Results

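The sirtuins Sirt1 to Sirt7, the ADP-ribosyltransferases Parp1 and Parp2, and the ecto-enzyme Cd38 were followed in liver RNA-seq of db/db mice given an adenovirus for green fluorescent protein (AdGFP) or for nicotinamide phosphoribosyltransferase (AdNAMPT). These 10 genes were taken by symbol from the 41388 features of the deposited tables, each symbol matched 1 protein-coding feature, and all 10 were among the 12270 genes tested. Every mouse was on the C57B/6J strain, with db/db (no working leptin receptor) given in the sample titles only, and the genotype label separates control from NAMPT overexpression. Littermates were randomised at 5 weeks of age, received the virus through the tail vein and were 10 weeks old at sampling. The series text gives 4 to 5 weeks of overexpression. The paper's methods, and its legend for white adipose tissue of db/db mice, give shorter times from adenovirus delivery to assay. The time that applies to these livers is therefore not settled. The titles place 4 mice in AdGFP and 4 in AdNAMPT, and the AdGFP mice carried a vector too, so viral delivery is shared by both groups. The promoter that drives either vector is not given in the sources used here.

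NAD is both a redox carrier and a substrate that several enzyme families break down. Sirtuins use it to remove acetyl, succinyl and other acyl groups from lysines, PARPs transfer its ADP-ribose to proteins after DNA damage, and CD38 hydrolyses it at membranes, and each of these reactions releases nicotinamide. NAMPT, the rate-limiting enzyme of salvage in most tissues, returns nicotinamide toward NAD, which is why the transcripts of the consumers were examined in livers given the NAMPT vector.

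Libraries held 12006713 to 19879814 counts. Summed hepatocyte markers made up 96350 to 117100 CPM in AdGFP and 85750 to 111500 CPM in AdNAMPT. CPM is a count scaled to its library's counts over the tested genes and divided by its TMM factor. One library stood apart in Xist, the RNA of the inactive X chromosome and a gene chosen after its values were seen. In deposited CPM, scaled to the library total without the TMM factor, Xist was at 21.3 in AdNAMPT replicate 4. It lay between 0 and 0.500 elsewhere, while the study's methods describe male mice. The group differences of the 10 genes and of the pathway genes named below are therefore also given without AdNAMPT replicate 4. AdNAMPT replicate 1 differed in another way, since limma gave it the lowest weight of any library, 0.440 against 0.811 to 1.41 elsewhere. Ribosomal RNA took 1.77% to 2.63% of counts in AdGFP and 0.863% to 1.62% in AdNAMPT, ranges that did not overlap, and its part in the results was not tested.

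The transferred gene was examined first. Nampt measured 107.3, 148.6, 159.5 and 147.9 CPM in the AdGFP mice and 144.1, 120.3, 171.7 and 168.0 CPM in the AdNAMPT mice, listed here and below by replicate number. The groups overlapped, with a log2 fold change (AdNAMPT over AdGFP) of 0.08 (SE 0.15, limma adjusted p = 0.915), which was -0.05 without AdNAMPT replicate 4. Nampt RNA in the tables therefore did not separate the groups, and AdNAMPT below means the libraries labelled so.

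The start regions of the 10 genes differed widely in their content of CG pairs. In the RefSeq promoter windows on GRCm38.p6, which run from 250 bases before to 50 bases after a start site, 12 windows matched the 10 genes, and they held between 1 and 47 CG pairs against a median of 7 over 32841 windows. The ends of that range are shown, read along each gene's own strand with the CG pairs in capitals. The window of Sirt1 is chr10:63338986-63339285 on the minus strand, and that of Cd38 is chr5:43868559-43868858 on the plus strand.
Sirt1: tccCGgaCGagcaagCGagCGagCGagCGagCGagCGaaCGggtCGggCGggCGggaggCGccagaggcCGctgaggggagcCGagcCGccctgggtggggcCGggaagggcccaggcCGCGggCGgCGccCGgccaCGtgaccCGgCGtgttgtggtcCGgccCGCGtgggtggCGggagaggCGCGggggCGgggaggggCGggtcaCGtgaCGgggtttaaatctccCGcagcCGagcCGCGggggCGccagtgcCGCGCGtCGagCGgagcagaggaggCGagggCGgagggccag
Cd38: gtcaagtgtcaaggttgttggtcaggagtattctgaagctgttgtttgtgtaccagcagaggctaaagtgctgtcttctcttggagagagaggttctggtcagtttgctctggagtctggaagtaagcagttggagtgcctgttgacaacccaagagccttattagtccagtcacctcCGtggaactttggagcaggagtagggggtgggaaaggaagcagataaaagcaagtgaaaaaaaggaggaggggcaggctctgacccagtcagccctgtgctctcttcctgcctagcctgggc
The Sirt1 window held 47 CG pairs in 300 bases, at the 98.6th percentile of all windows, and the Cd38 window held 1, at the 5.42nd percentile. The other 8 genes lay between these, from 15 pairs in Sirt4 and Sirt5 to 25 in Parp2. The windows of Sirt1 and Sirt4, and a window each of Sirt3 and Sirt6, lie wholly inside the deposited gene spans. Those of Sirt5 and Parp1 lie before the deposited start, since the annotations differ in where the genes begin.

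Short motifs were searched on both strands, with matches of different motifs counted even where they shared bases. A gene was counted if any of its windows held the motif, whereas the shares over all are per window. Sirt3 and Sirt6 had more than 1 window, so the count of genes and the share are not like for like. GGGCGG, the GC box, was present in 8 of the 10 genes and in 35.7% of all windows, with 7 matches in Sirt1. CACGTG, the E-box read by clock and MYC-family factors, was present in 3 of 10 (2 matches in Sirt1, 1 each in Parp1 and Parp2) and in 7.15% of windows. CCGGAAG was present in 3 of 10 and 8.86% of windows, GCATGCG in 3 of 10 and 3.58%, and CCAAT in 3 of 10 and 37.4%. TATAAA was found in none of the 10 genes and in 13.6% of windows. The Cd38 window held none of the 6 motifs.

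Transcript levels of the 10 genes spanned a wide range, led by the mitochondrial deacetylase. Levels between genes are compared as deposited RPKM, reads scaled to the library total and to the length of the exons in kilobases, over the 8 libraries. That length is of all exons annotated for a gene, from 1367 bases in Sirt5 to 5148 in Sirt7 and 5331 in Sirt1. Which of these exons the liver transcripts contain was not tested, so the order and the shares below depend on the annotation. Sirt3, the main deacetylase of mitochondrial proteins, was highest at 75.5 ± 7.41 RPKM (mean ± SD, n = 8), at the 94.4th percentile of tested genes. It exceeded the next gene 6.57 times and was above it in all 8 libraries. Parp1, the DNA-break sensor that makes most poly(ADP-ribose), was at 11.5 ± 0.914 RPKM and Sirt5, the mitochondrial desuccinylase, at 11.2 ± 2.001 RPKM. Both were not separable, since Parp1 was above Sirt5 in 4 of the 8 libraries.

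Sirt2, a mostly cytosolic tubulin deacetylase, followed at 8.46 ± 0.664 RPKM and Sirt7, a nucleolar sirtuin tied to ribosomal DNA transcription, at 7.33 ± 0.788 RPKM. Cd38 was at 5.09 ± 0.812 RPKM and Parp2, the close relative of Parp1, at 4.68 ± 0.606 RPKM. The ranges of each neighbour from Parp1 down to Parp2 overlapped, which makes 5 of the 9 neighbouring pairs. The last 3 genes each lay below their neighbour in all 8 libraries: Sirt4, a mitochondrial sirtuin that restrains glutamate dehydrogenase, at 2.56 ± 0.195 RPKM, Sirt1, the nuclear deacetylase of PGC1α, FOXO factors and p53, at 1.86 ± 0.267 RPKM, and Sirt6, a chromatin-bound histone deacetylase, at 0.716 ± 0.157 RPKM. Sirt1 was at the 32.7th percentile of tested genes and Sirt6 at the 14.4th, under the median level of 3.71 RPKM.

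**Figure D1:**
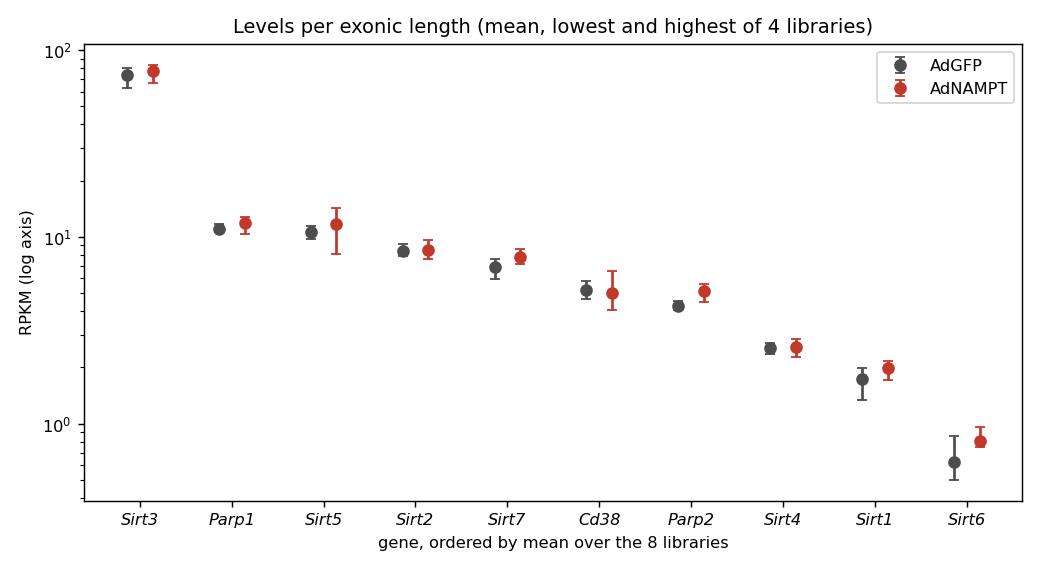
Deposited RPKM (log axis) of the 10 genes, ordered by their mean over all libraries, with points at the mean of 4 AdGFP (grey) or 4 AdNAMPT (red) mice and bars from the lowest to the highest mouse. Sirt3 stands 6.57 times above Parp1, and from highest to lowest the means span 105 times.

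Sirt3 also dominated the summed sirtuin transcripts. Its share of the summed sirtuin RPKM was 70.3% ± 2.67 (SD, n = 4) with AdGFP against 69.8% ± 3.14 (SD, n = 4) with AdNAMPT, and it lay between 66.3% and 73.3% in every library. Sirt1 made up 1.68% ± 0.369 and 1.79% ± 0.0633. The summed sirtuin RPKM ran from 94.2 to 112 in AdGFP and from 100.3 to 117 in AdNAMPT, and the groups overlapped. These sums carry no TMM factor, and scaling by library size alone moved the median of all tested genes up by 0.08 (log2) in AdNAMPT. The order of the 10 genes is a description of liver tissue as a whole, in which fewer cells of a type and less RNA per cell cannot be told apart.

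None of the 10 NAD consumers passed the test between AdNAMPT and AdGFP. The question was whether the transcripts of NAD-using enzymes differed where the NAMPT vector had been given. In limma, with p-values adjusted over all 12270 genes, 0 of 10 reached an adjusted p of at most 0.05, against 0.277% of all genes (34 genes, 0.0163% in the higher and 0.261% in the lower direction). Adjusted p-values ran from 0.576 to 0.915 in limma, and edgeR and DESeq2 also called 0. At an unadjusted p under 0.05 the count was 0 of 10 in limma, edgeR and DESeq2, beside 9.69% of all genes in limma. In no gene did the groups separate, against 4.78% of all genes (2.09% with AdNAMPT higher and 2.69% with AdNAMPT lower). By estimate 6 were higher and 4 lower, where 50.4% of all genes were higher. Their median absolute log2 fold change was 0.09, against 0.11 over all genes.

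The intervals bound the size of any difference. The 95% interval of 9 of the 10 genes lay within 1.5-fold in either direction, as it did for 74.0% of all tested genes, and Sirt6 was the exception. Standard errors on the log2 scale ran from 0.07 for Parp1 to 0.21 for Sirt6, with a median of 0.11 against 0.12 over all genes. Without AdNAMPT replicate 4 the count that passed was still 0 of 10, and the lowest adjusted p in limma was 0.364.

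**Figure D2:**
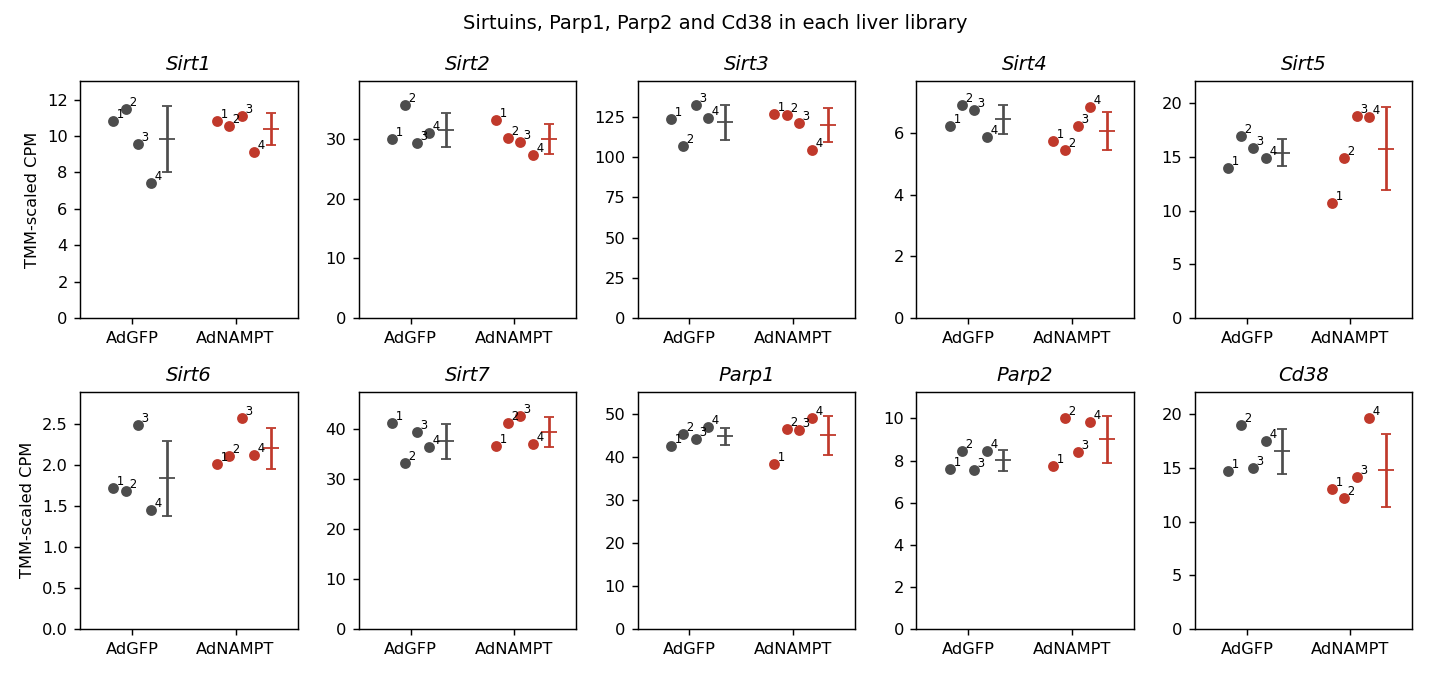
TMM-scaled CPM (linear axes from 0, 1 panel per gene) in each of the 8 libraries, numbered by replicate, with the mean and SD of each group of 4 beside the points. The AdGFP (grey) and AdNAMPT (red) points overlap in all 10 panels.

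Among the nuclear sirtuins, Sirt1 (ENSMUSG00000020063, chromosome 10, 63319005 to 63381704, minus strand, on GRCm38 as all deposited positions are) measured 10.8, 11.5, 9.55 and 7.40 CPM in AdGFP and 10.8, 10.6, 11.1 and 9.13 CPM in AdNAMPT. Every AdNAMPT value lay inside the AdGFP range, whose lowest point was replicate 4. The difference was 0.12 on the log2 scale (SE 0.14), a 1.09-fold difference with a 95% interval from 0.880 to 1.35 (limma adjusted p = 0.822). It was -0.01 without AdGFP replicate 4 and 0.18 without AdNAMPT replicate 4. The gene had 97 to 228 reads per library, which alone gives a counting error of up to 10.2%.

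Sirt6 (ENSMUSG00000034748, chromosome 10, 81621785 to 81627797, minus strand) was at 1.72, 1.69, 2.50 and 1.45 CPM in AdGFP and at 2.02, 2.12, 2.58 and 2.12 CPM in AdNAMPT. All AdNAMPT libraries exceeded 3 of the 4 AdGFP libraries, and AdGFP replicate 3 lay among them. The fold was 1.22 (95% interval 0.882 to 1.68, limma adjusted p = 0.715), the widest interval of the 10 genes. With 19 to 53 reads per library its counting error reached 22.9%, beside a coefficient of variation between AdGFP mice of 24.7%. Without AdGFP replicate 3 the log2 fold change went from 0.28 to 0.47 (limma unadjusted p = 0.0442), and without AdNAMPT replicate 4 it was 0.27.

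Sirt7 (ENSMUSG00000025138, chromosome 11, 120618372 to 120625240, minus strand) was at 41.0, 33.1, 39.3 and 36.4 CPM in AdGFP and at 36.6, 41.1, 42.6 and 36.8 CPM in AdNAMPT. AdNAMPT replicates 2 and 3 lay just above the AdGFP range and the others inside it. The fold was 1.05 (95% interval 0.927 to 1.20, limma adjusted p = 0.821), and it shares 124 exonic bases, 2.41% of its length, with Mafg on the same strand. On the log2 scale the difference was 0.07, and 0.11 without AdNAMPT replicate 4.

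Among the mitochondrial sirtuins, Sirt3 (ENSMUSG00000025486, chromosome 7, 140863670 to 140882309, minus strand) was at 123, 107, 132 and 124 CPM in AdGFP and at 127, 126, 121 and 104 CPM in AdNAMPT. Both groups held a single lower library, AdGFP replicate 2 and AdNAMPT replicate 4, with the remaining libraries close together. The fold was 0.970 (95% interval 0.852 to 1.105, limma adjusted p = 0.915), which bounds the difference closely for a gene of 1390 to 2490 reads. The log2 fold change of -0.04 turned to 0.03 without AdNAMPT replicate 4. Sirt3 shares 152 exonic bases, 9.68% of its length, with the opposite-strand gene Psmd13 and 61 with Ric8a. Only unambiguous reads were counted, and the strand setting of the counting is not given in the sources used here. Whether reads from the shared bases were counted for Sirt3 or left out is therefore not known.

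Sirt4 (ENSMUSG00000029524, chromosome 5, 115478010 to 115484725, minus strand) was at 6.24, 6.90, 6.74 and 5.88 CPM in AdGFP and at 5.72, 5.46, 6.22 and 6.83 CPM in AdNAMPT. A pair of AdNAMPT libraries lay below the AdGFP range and the others lay inside it. The fold was 0.946 (95% interval 0.790 to 1.13, limma adjusted p = 0.874) from 71 to 128 reads per library. The log2 fold change of -0.08 became -0.16 without AdNAMPT replicate 4 and -0.0076 without AdNAMPT replicate 2.

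Sirt5 (ENSMUSG00000054021, chromosome 13, 43370710 to 43395202, plus strand) was at 13.98, 16.9, 15.8 and 14.9 CPM in AdGFP and at 10.7, 14.9, 18.9 and 18.7 CPM in AdNAMPT. The AdNAMPT libraries fell on both sides of the AdGFP range, with replicate 1 below and replicates 3 and 4 above. Their coefficient of variation was 24.3%, against 8.26% in AdGFP. The fold was 1.07 (95% interval 0.875 to 1.31, limma adjusted p = 0.856), and the log2 fold change of 0.10 turned to -0.03 without AdNAMPT replicate 3 and to -0.02 without AdNAMPT replicate 4.

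Sirt2 (ENSMUSG00000015149, chromosome 7, 28766735 to 28788665, plus strand), the cytosolic member, was at 30.0, 35.6, 29.4 and 31.0 CPM in AdGFP and at 33.2, 30.1, 29.4 and 27.3 CPM in AdNAMPT. Only AdNAMPT replicate 4 lay below the AdGFP range. The fold was 0.952 (95% interval 0.842 to 1.08, limma adjusted p = 0.827), and the log2 fold change of -0.07 became -0.03 without AdNAMPT replicate 4.

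Of the ADP-ribosyltransferases, Parp1 (ENSMUSG00000026496, chromosome 1, 180568955 to 180601253, plus strand) was at 42.6, 45.5, 44.2 and 47.2 CPM in AdGFP and at 38.5, 46.5, 46.4 and 49.1 CPM in AdNAMPT. The group means, 44.9 ± 1.95 and 45.1 ± 4.58 CPM (SD, n = 4 each), nearly coincided, although AdNAMPT replicate 1 lay below and replicate 4 above the AdGFP range. The fold was 1.03 (95% interval 0.920 to 1.15, limma adjusted p = 0.902), with the smallest standard error of the 10 genes. Its log2 fold change was 0.04, and 0.01 without AdNAMPT replicate 4.

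Parp2 (ENSMUSG00000036023, chromosome 14, 50807946 to 50821300, plus strand) was at 7.60, 8.43, 7.55 and 8.47 CPM in AdGFP and at 7.74, 10.0, 8.41 and 9.84 CPM in AdNAMPT. AdNAMPT replicates 2 and 4 lay above the AdGFP range and replicates 1 and 3 inside it. The fold was 1.16 (95% interval 0.981 to 1.37), with the lowest p of the 10 genes (limma unadjusted p = 0.0769, adjusted p = 0.576). Without AdNAMPT replicate 4 the log2 fold change was 0.22, against 0.21 with it.

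Cd38 (ENSMUSG00000029084, chromosome 5, 43868809 to 43912375, plus strand) was at 14.7, 19.0, 15.0 and 17.5 CPM in AdGFP and at 13.1, 12.2, 14.1 and 19.7 CPM in AdNAMPT. AdNAMPT replicates 1 to 3 lay below every AdGFP library, and AdNAMPT replicate 4, the library with Xist reads, was the highest of all. The fold was 0.896 (95% interval 0.718 to 1.12, limma adjusted p = 0.773). Without AdNAMPT replicate 4 the log2 fold change went from -0.16 to -0.33 (limma unadjusted p = 0.0166, adjusted p = 0.364), still short of the threshold.

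CD38 is also carried by macrophages and lymphocytes, so markers of other liver cells were set beside it. Summed markers of Kupffer cells, the resident liver macrophages, were at 257, 285, 281 and 225 CPM in AdGFP and at 153, 175, 234 and 258 CPM in AdNAMPT. In AdNAMPT, replicates 1 and 2 were lowest and replicate 4 highest for both Cd38 and this sum. In AdGFP the orders differed, since replicate 4 had the lowest sum and the second highest Cd38 value, and replicate 3 had a high sum and a low Cd38 value. All 7 Kupffer markers were lower by estimate, with log2 fold changes from -0.83 to -0.12 and a median of -0.44, and all 7 were so without AdNAMPT replicate 4 (median -0.63). In limma 0 of the 7 passed and 3 had an unadjusted p under 0.05, beside 9.69% of all genes. The groups did not overlap in 2 of the 7, beside 4.78% of all genes. No Kupffer marker was at 0 in all libraries, and the part of these cells in the Cd38 values was not tested.

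Summed B and plasma cell markers were low, at 0.920 to 2.37 CPM in AdGFP and 1.53 to 3.06 CPM in AdNAMPT, as were those of T and natural killer cells, at 1.99 to 4.29 and 2.42 to 6.25 CPM. The sums overlapped between groups for endothelial cells (217.9 to 250.7 and 209.6 to 249.3 CPM), stellate cells (304 to 338 and 302 to 332 CPM) and cholangiocytes (3.99 to 7.94 and 4.13 to 8.30 CPM). Erythroid markers (269 to 520 and 339 to 555 CPM) and adipocyte markers (0.0624 to 0.229 and 0.118 to 0.564 CPM) overlapped too. No marker of these lists was at 0 in all libraries, and their part in the values of the 10 genes was not tested.

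**Figure D3:**
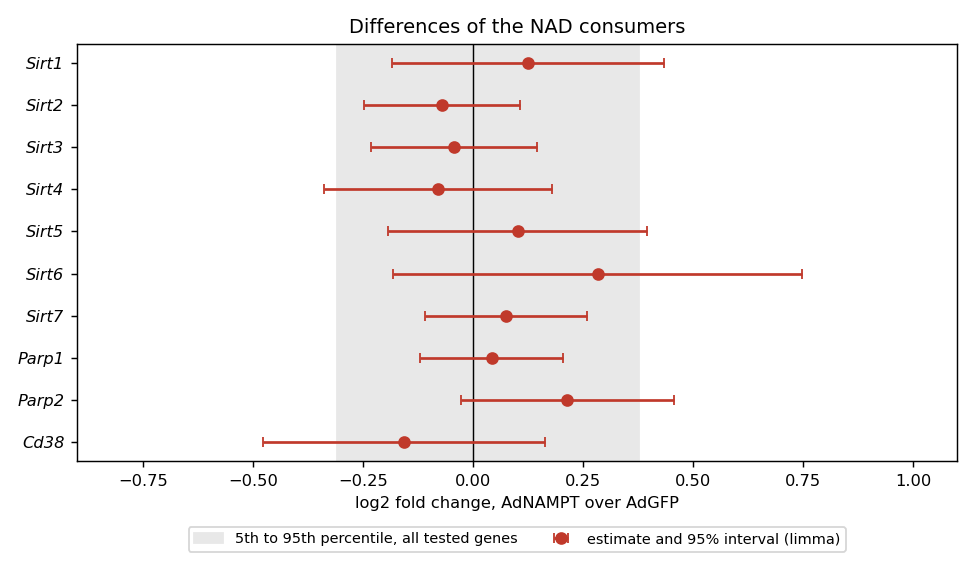
Log2 fold change of AdNAMPT over AdGFP for each gene, with points at the limma estimate, bars for the 95% confidence interval and a grey band from the 5th to the 95th percentile of all 12270 tested genes (-0.31 to 0.38). All 10 intervals include 0, and that of Sirt6 is the widest.

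The choice of processing shifted small estimates but made no gene pass. Across 19 alternatives for each of the 10 genes, 183 of 190 estimates kept their direction and 0 passed. With library size alone as the scaling, the median of all tested genes moved up by 0.08 on the log2 scale and 9 of the 10 genes were higher, with Sirt2, Sirt3 and Sirt4 changing sign. Sirt6, Sirt7, Parp1, Parp2 and Cd38 kept their direction in all 19.

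**Figure D4:**
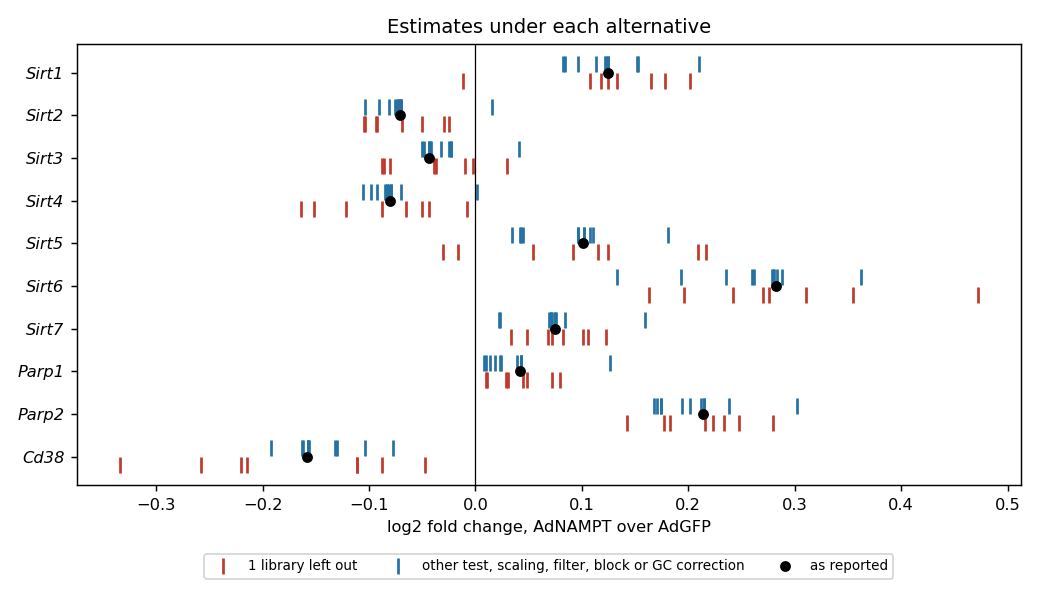
Log2 fold change of AdNAMPT over AdGFP for each gene as reported (black), with 1 library left out (red ticks) and under another test, scaling, filter, block or GC correction (blue ticks). Ticks of Sirt1, Sirt2, Sirt3, Sirt4 and Sirt5 fall on both sides of 0, and those of the other genes stay on 1 side.

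None of the genes around the NAD consumers passed either. Of 98 genes in 11 lists of other PARPs, PARP partners, ADP-ribose removal, NAD supply, sirtuin regulators, substrates and targets and interferon response, 89 were tested and 0 passed in limma, edgeR or DESeq2 (lowest adjusted p = 0.338 in limma). An unadjusted p under 0.05 was found for 9 of the 89, or 10.1%, beside 9.69% of all genes. The groups did not overlap in 5 of the 89, or 5.62%, beside 4.78% of all genes. Without AdNAMPT replicate 4, 0 passed and 10 of 89 (11.2%) had an unadjusted p under 0.05, beside 11.3% of all genes.

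Among the other PARPs, 7 of 8 were tested, 6 were higher by estimate and 1 lower (median log2 fold change 0.13). Parp6, a mono-ADP-ribosyltransferase, was at 9.39, 11.3, 11.7 and 10.8 CPM in AdGFP and at 13.8, 14.3, 12.8 and 12.1 CPM in AdNAMPT. Every AdNAMPT library was above every AdGFP library, with a log2 fold change of 0.31 (SE 0.10, limma adjusted p = 0.422) that was 0.37 without AdNAMPT replicate 4. Tiparp, a mono-ADP-ribosyltransferase that represses the aryl hydrocarbon receptor, was at 8.82, 12.5, 10.7 and 10.4 CPM in AdGFP and at 8.22, 12.6, 16.7 and 15.9 CPM in AdNAMPT. Its AdNAMPT values covered the whole AdGFP range, with a log2 fold change of 0.43 (SE 0.17, limma unadjusted p = 0.0266, adjusted p = 0.476). Without AdNAMPT replicate 4 this was 0.30, with an unadjusted p of 0.114 in limma. Parp16, chosen after its values were seen, had the third unadjusted p under 0.05, in the lower direction (log2 fold change -0.26, and -0.25 without AdNAMPT replicate 4).

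The PARPs induced by interferon were split, 3 higher and 3 lower of 6 (median 0.01). Parp10, a mono-ADP-ribosyltransferase, had the lowest p of all 89 genes. It was at 24.2, 23.2, 22.4 and 24.3 CPM in AdGFP and at 24.3, 27.5, 29.9 and 30.3 CPM in AdNAMPT, so that the lowest AdNAMPT library met the highest AdGFP library. On the log2 scale the difference was 0.27 (SE 0.08, limma unadjusted p = 0.00492, adjusted p = 0.338), and 0.22 without AdNAMPT replicate 4. Zc3hav1, the zinc-finger antiviral protein, had a log2 fold change of -0.16 (limma adjusted p = 0.652), and of -0.25 without AdNAMPT replicate 4. The interferon response list itself had 9 of 12 genes tested, 5 higher and 4 lower (median 0.03), with Ifi44 at 0.35 (adjusted p = 0.765 in limma) and at 0.12 without AdNAMPT replicate 4.

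Transcripts of proteins that work with PARP1 and PARP2 at DNA breaks were lower by estimate in 5 of 6 (median -0.11), and 0 passed. Hpf1, which turns both enzymes toward serine residues, was at 5.52, 6.52, 6.49 and 7.02 CPM in AdGFP and at 5.16, 3.14, 5.59 and 5.36 CPM in AdNAMPT. Only AdNAMPT replicate 3 lay inside the AdGFP range. On the log2 scale the difference was -0.49 (SE 0.19, limma adjusted p = 0.465) on 46 to 115 reads, and -0.69 without AdNAMPT replicate 4. Lig3, the ligase of single-strand break repair, was at -0.17 (limma adjusted p = 0.651), and at -0.13 without that library. Of 6 genes that remove ADP-ribose, 2 were higher and 4 lower (median -0.07), with Adprhl2, the serine ADP-ribosyl hydrolase, at 0.19 and Parg, the poly(ADP-ribose) glycohydrolase, at -0.11 (limma adjusted p = 0.636 and 0.647). Without AdNAMPT replicate 4 these were 0.11 and -0.10. The other NAD-hydrolysing enzymes, Bst1 and Sarm1, had 1 to 17 and 1 to 10 reads and were not tested.

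Genes that supply or divert NAD split evenly, with 6 higher and 6 lower of 12 tested (median -0.01). Aox1, an oxidase that converts the nicotinamide breakdown product methylnicotinamide, was at 94.8, 106, 95.9 and 86.4 CPM in AdGFP and at 107, 112, 108 and 119 CPM in AdNAMPT. The groups did not overlap, though the highest AdGFP and lowest AdNAMPT libraries nearly met at 106.3 and 106.5 CPM (log2 fold change 0.24, SE 0.08, limma adjusted p = 0.383, and 0.22 without AdNAMPT replicate 4). Nmnat1, the nuclear enzyme that completes NAD synthesis after NAMPT, was at 18.1, 21.9, 20.2 and 19.8 CPM in AdGFP and at 21.0, 24.1, 23.6 and 21.6 CPM in AdNAMPT. The groups overlapped in part (log2 fold change 0.22, SE 0.08, limma adjusted p = 0.459, and 0.25 without AdNAMPT replicate 4). Nadk2, the mitochondrial NAD kinase, and Aplf, a PARP-dependent end-joining factor, were lower without overlap, and both were chosen after their values were seen (log2 fold changes -0.13 and -0.15, limma adjusted p = 0.558 and 0.745, and -0.12 and -0.17 without that library).

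None of the transcripts of SIRT1 substrates passed, with 4 higher and 10 lower of 14 (median -0.05). Stat3, the signal transducer of interleukin-6, was at 104, 110, 101 and 115 CPM in AdGFP and at 91.8, 92.1, 95.4 and 90.8 CPM in AdNAMPT. All AdNAMPT libraries lay below all AdGFP libraries (log2 fold change -0.21, SE 0.07, limma adjusted p = 0.392, and also -0.21 without AdNAMPT replicate 4). Per2, a repressor of the circadian clock, was at 27.5, 32.8, 33.2 and 29.1 CPM in AdGFP and at 38.0, 39.8, 37.5 and 31.2 CPM in AdNAMPT. Only AdNAMPT replicate 4 lay inside the AdGFP range, and the log2 fold change of 0.27 (SE 0.10, limma adjusted p = 0.430) was 0.36 without it (adjusted p = 0.205 in limma). These are transcript levels, and the acetylation of the proteins was not measured.

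Of 4 regulators of SIRT1, 2 were higher and 2 lower (median 0.02), with E2f1 at -0.22 and Ccar2, an inhibitor that binds SIRT1, at 0.14 (limma adjusted p = 0.647 and 0.725), and at -0.27 and 0.20 without AdNAMPT replicate 4. Substrates of the mitochondrial sirtuins had 7 higher and 9 lower of 16 tested (median -0.01), with the urea cycle enzymes Cps1 at -0.27 and Otc at -0.12 (limma adjusted p = 0.577 and 0.688), and at -0.23 and -0.10 without that library. Genes that SIRT6 represses, which encode glycolytic and cholesterol-regulating proteins, had 3 higher and 6 lower of 9 (median -0.10). The lactate dehydrogenase genes Ldhb and Ldha were at -0.49 and -0.19 (limma adjusted p = 0.618 and 0.629), and at -0.47 and -0.19 without that library. Ldhb had only 13 to 26 reads per library, with an SE of 0.27 against 0.11 for Ldha.

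**Figure D5:**
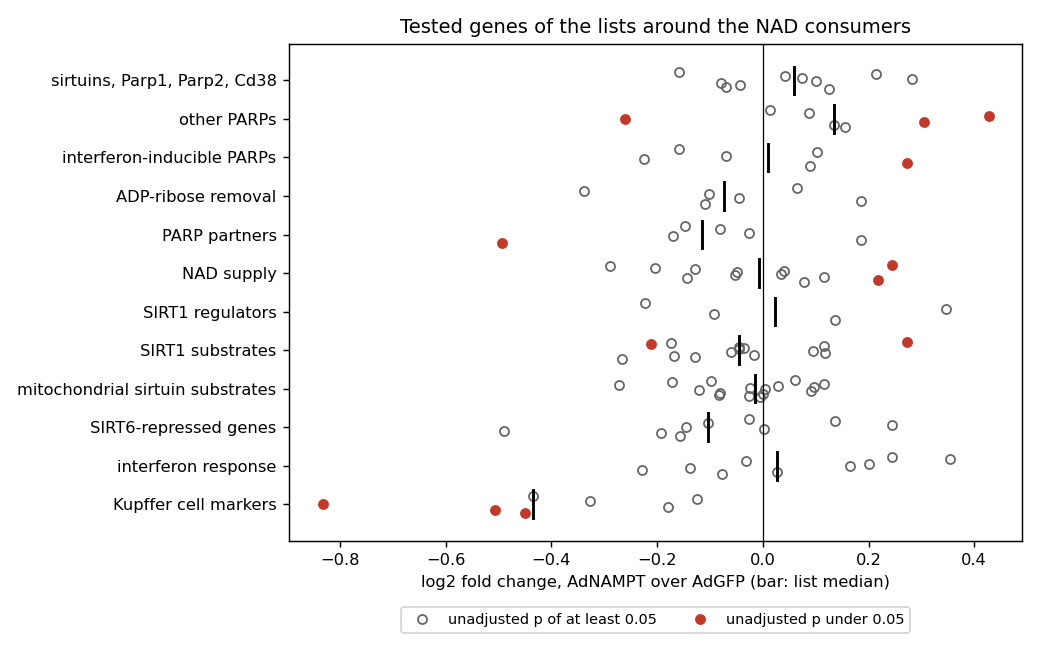
Log2 fold change of AdNAMPT over AdGFP for each tested gene of the 10 NAD consumers, of the surrounding lists and of Kupffer cell markers, with a bar at each list's median and filled points for an unadjusted limma p under 0.05. The 10 NAD consumers have 0 filled points, and all 7 Kupffer cell markers lie left of 0.

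The genes closest to Sirt1 across libraries were found by the root mean square difference of centred log2 CPM over the 8 libraries. Hnrnpu was nearest at 0.0755, followed by Erlec1 at 0.0856 and Pard6b at 0.0887, where Sirt1 itself deviated from its mean by 0.194. Their log2 fold changes between groups were 0.04, 0.01 and 0.24, and none passed in limma.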

How the data were processed

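Liver RNA-seq of 8 db/db mice was used, 4 given AdGFP and 4 AdNAMPT, grouped by sample title. The submitters' processing notes name STAR 2.4.0b, featureCounts 1.4.5 and GRCm38, and the methods name the same tools, with another STAR version, Ensembl gene models and single short reads. The labels name a ribosomal depletion kit and the methods poly-A selection. The deposited counts are whole numbers of reads for each gene, made by the authors from unique, unambiguous alignments. The deposited CPM are those counts scaled to the library total, and the deposited RPKM are the CPM per kilobase of exon, used here for levels between genes.

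Following the study's methods, 355 ribosomal RNA features and genes not above 1 CPM in at least 3 libraries were left out, leaving 12270 genes, and fits that omit a library asked for 1 fewer. Counts were scaled by TMM and fitted in limma (voomWithQualityWeights, then lmFit and eBayes) on group alone, and Benjamini-Hochberg adjustment ran over all tested genes. CPM per library were scaled to the library's counts over the tested genes and divided by the TMM factor. Symbols from GENCODE M21 matched 40340 of 41388 features. Intervals are 95%. Libraries held 12006713 to 19879814 counts, so that 3 counts correspond to 0.151 to 0.250 deposited CPM, a floor that covers counting error only. Replicates differed beyond sampling noise (chi-square over its degrees of freedom 11.3 to 81.8). Within AdGFP it was 64.0 to 78.4 for pairs with replicate 2 and 11.3 to 17.6 for the other pairs. Within AdNAMPT it was 40.7 to 81.8 for pairs with replicate 1 and 22.9 to 29.7 for the other pairs. Titles number the mice and do not state separate cages or litters.

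Members and gene lists were chosen with earlier results of these data known. The naming rule was all 10 genes, Nampt, in each list the genes that passed or else the 2 with the smallest unadjusted p, and the 3 genes nearest to Sirt1, and 1 gene it names is not reported here. Alternatives were edgeR's quasi-likelihood test, the DESeq2 Wald test, no sample weights, DESeq2 size factors, library size alone, no filter, a minimum mean count of 10, omission of ribosomal protein genes, a replicate block, a GC correction of each library, both together, an adjusted p of at most 0.10 and each library left out. The main limma fit, edgeR, DESeq2, no sample weights, DESeq2 size factors, library size alone, the replicate block and the GC correction were run on simulated counts. The changes simulated were larger than any estimate for the 10 genes. The remaining alternatives were not run on simulated counts. Fits ran in R 4.3.3 with DESeq2 1.42.0, edgeR 4.0.16 and limma 3.58.1, and summaries and plots in Python 3.11.15 with numpy 2.4.6, pandas 2.3.3 and matplotlib 3.10.9.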

Additional observations from a re-analysis of the deposited data

Results flagged for a closer look

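In 40 values examined in both groups (80 groups of 4 libraries), the highest or lowest library stood apart by Dixon's criterion in 2, where chance gives about 4. Parg, the poly(ADP-ribose) glycohydrolase, was at 28.0 CPM in AdNAMPT replicate 1 and between 24.0 and 24.4 CPM in the other AdNAMPT libraries. Summed adipocyte markers were at 0.229 CPM in AdGFP replicate 4 and between 0.0624 and 0.0767 CPM in the other AdGFP libraries. These sums lie at or below the floor of 3 counts, and no adipocyte marker passed the filter for testing. Neither was a value of the 10 NAD consumers.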

How the results depend on the processing

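The count of the 10 NAD consumers and of the surrounding pathway genes that passed was 0 under every alternative run, an adjusted p of at most 0.10 included. Over all genes, 34 passed, against 75 with the DESeq2 Wald test, 33 with edgeR, 39 with library size alone (8 higher and 31 lower) and 28 to 38 with 1 library left out. With library size alone the log2 fold change was 0.0159 for Sirt2, 0.0411 for Sirt3 and 0.00124 for Sirt4, each of the opposite sign to the reported value. With 1 library left out, it ran from -0.0114 to 0.202 for Sirt1, from -0.0877 to 0.0293 for Sirt3 and from -0.0304 to 0.217 for Sirt5, and it kept its sign in the other 7 genes. These turns came without AdGFP replicate 4 (Sirt1), AdNAMPT replicate 4 (Sirt3 and Sirt5) and AdNAMPT replicate 3 (Sirt5), and the cause was not tested. An unadjusted p under 0.05 appeared for Parp2 in 3 alternatives, for Sirt6 in 1 and for Cd38 in 1. Over all genes the share under 0.05 was 9.69% in the reported limma fit and 11.3% without AdNAMPT replicate 4. The lowest adjusted p of any of the 10 genes under any alternative was 0.28, for Parp2 with library size alone. What mice with the same number have in common is not stated. Their deviations correlated by 0.223, -0.0442, 0.213 and 0.00684, and 2 of 4 mice correlated best with their own number. The replicate block called 0 of the 10 genes and 41 of all genes, and with the GC correction 0 and 42. Sirt6 had the fewest reads, as few as 19 in a library.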
